A study of Mus musculus with 24 samples.

Results

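Collagens are proteins of the extracellular matrix built from 3 chains wound into a triple helix, and each chain has a gene of its own. The genes described here are those whose single symbol in the platform annotation has the form Col, a collagen type number, the letter a and a chain number. There were 42 such genes among the 18193 genes with 1 symbol on the arrays, and each was represented by its probe set with the highest mean deposited signal over the 24 arrays. The study removed Neurod1, the gene of a basic helix-loop-helix transcription factor, from the pineal gland and the retina of C57BL/6J mice. All 8 groups carried floxed Neurod1 alleles: the controls were NeuroD1flox/flox::Crx-cre-/-, and the conditional knockout mice (cKO) were NeuroD1flox/flox::Crx-cre+/-. In the latter Cre is driven by the Crx promoter, which is active in photoreceptors and in pinealocytes, so the deletion is aimed at those cells and not at other cells of the same organs. Mice of both sexes, 2 months old and kept in 12 h of light and 12 h of darkness, were sampled at ZT6, in the light, and at ZT20, at night under dim red light. For each tissue, genotype and time there were 3 pools, each of 6 glands or retinas and each hybridised to 1 Affymetrix Mouse 430 2.0 array. Because organs were pooled, the spread between arrays is that between pools, not between animals.

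Collagens differ in what they build. Fibrillar chains (types I, II, III, V, XI, XXIV and XXVII) assemble into banded fibrils, with types I and III typical of fibroblasts and meninges and type II of cartilage and vitreous. Type IV chains form the sheet of basement membranes, type VI chains form beaded filaments around cells, and type VIII chains form hexagonal networks such as that of Descemet's membrane in the cornea. Fibril-associated chains (such as types IX, XII, XIV and XIX to XXII) coat fibrils, type XIII, XXIII and XXV chains span the plasma membrane, and types XV and XVIII are basement membrane proteoglycans, the latter the source of endostatin. In the eye, type II and type IX collagen are constituents of the vitreous, and type IV collagen of the inner limiting membrane, Bruch's membrane, the lens capsule and vessels. The mouse pineal gland is covered by pia and rich in vessels and connective tissue.

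By class the 42 genes were 11 fibrillar, 6 basement membrane network, 5 beaded filament, 3 short-chain network, 9 fibril-associated, 4 transmembrane, 2 multiplexin and 2 other chains, and 7 pairs of them were direct neighbours among protein-coding genes in RefSeq's GRCm38.p6, namely Col4a1 with Col4a2, Col4a3 with Col4a4, Col4a5 with Col4a6, Col6a1 with Col6a2, Col6a4 with Col6a5, Col3a1 with Col5a2 and Col9a1 with Col19a1. Testing in a tissue required that at least 3 of its 12 arrays gave the gene a signal higher than the array median. On this filter 29 genes were tested in the pineal gland, 28 in the retina, 22 in both, and 35 in fits across all 24 arrays. The other 7, Col6a4, Col6a5, Col9a2, Col10a1, Col11a2, Col17a1 and Col26a1, were too dim for any fit, so nothing is said of them beyond that. Signals given below are quantile-normalised linear intensities, and differences are of log2(signal + 16), which understates changes of dim genes. Levels are compared between samples for 1 gene at a time, since probe sets of different genes bind with different strength.

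Promoter windows, from 250 bases before to 50 bases after an annotated RefSeq start (GRCm38.p6), were at hand for 33 of the 42 genes. Col4a1 and Col4a2 are shown because both rose at night in the control pineal gland: their windows lie head to head, and the capitals mark the 78 bases that both share, read on opposite strands.
Col4a1, chr8:11312777-11313076, minus strand: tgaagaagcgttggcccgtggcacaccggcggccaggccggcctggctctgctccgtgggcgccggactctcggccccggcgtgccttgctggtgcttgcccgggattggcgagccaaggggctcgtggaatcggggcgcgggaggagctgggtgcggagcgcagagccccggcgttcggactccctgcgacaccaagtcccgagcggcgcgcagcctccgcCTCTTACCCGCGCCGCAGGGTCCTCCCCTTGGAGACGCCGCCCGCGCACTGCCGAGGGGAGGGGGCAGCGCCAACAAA
Col4a2, chr8:11312555-11312854, plus strand: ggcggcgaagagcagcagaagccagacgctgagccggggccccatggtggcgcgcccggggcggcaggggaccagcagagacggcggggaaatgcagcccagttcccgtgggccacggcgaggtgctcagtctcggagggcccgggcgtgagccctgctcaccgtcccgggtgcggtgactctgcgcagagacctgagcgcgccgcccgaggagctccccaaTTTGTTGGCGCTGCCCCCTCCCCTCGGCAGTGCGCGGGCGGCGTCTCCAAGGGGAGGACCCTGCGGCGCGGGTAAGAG
Col25a1 is shown because it rose in the cKO retina at both times. The capitals mark a run of 16 bases that occurs at positions 90 and 176 of the window. A repeat of at least that length without overlap was found in 2.4% of the 32851 windows in the table.
Col25a1, chr3:130180595-130180894, plus strand: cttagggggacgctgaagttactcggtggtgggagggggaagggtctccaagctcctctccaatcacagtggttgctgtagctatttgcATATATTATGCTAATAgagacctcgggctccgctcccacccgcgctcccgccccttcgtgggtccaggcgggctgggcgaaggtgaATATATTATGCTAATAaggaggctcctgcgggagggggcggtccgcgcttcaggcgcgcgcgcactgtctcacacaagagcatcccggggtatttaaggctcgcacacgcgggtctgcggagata
Col9a1 and Col3a1 are shown because the first was bright in retina and dim in pineal gland and the second the reverse (each above the array median on 12 arrays of the one tissue and 1 of the other). Both hold the letters CAGATG, a form of the E-box that basic helix-loop-helix factors can bind, marked in capitals on whichever strand it reads. Col9a1 has 2 windows, and the one that holds the letters is printed.
Col9a1, chr1:24194953-24195252, plus strand: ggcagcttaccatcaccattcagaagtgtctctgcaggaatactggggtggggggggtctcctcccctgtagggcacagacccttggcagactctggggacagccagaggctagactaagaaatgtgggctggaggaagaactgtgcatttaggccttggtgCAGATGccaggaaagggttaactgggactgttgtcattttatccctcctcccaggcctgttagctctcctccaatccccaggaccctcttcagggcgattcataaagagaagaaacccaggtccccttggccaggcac
Col3a1, chr1:45311288-45311587, plus strand: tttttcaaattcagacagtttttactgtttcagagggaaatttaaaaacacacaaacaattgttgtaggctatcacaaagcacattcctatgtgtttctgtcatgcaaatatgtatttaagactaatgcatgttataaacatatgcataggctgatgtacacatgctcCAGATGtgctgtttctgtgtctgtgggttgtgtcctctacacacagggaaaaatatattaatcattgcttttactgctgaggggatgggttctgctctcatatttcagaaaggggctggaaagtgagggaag
Counted on both strands, CAGATG occurred in 3 of the 36 windows of these genes (Col3a1, Col4a5 and Col9a1; 8.33%) and in 17.2% of all windows. The CCAAT box occurred in 13 windows of these genes (36.1%) against 37.4% of all, and TATAAA in 5 (13.9%) against 13.6%. These are matches of letters in a short window, and the arrays do not measure binding.

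Before normalisation the pineal arrays had medians of 107.1 to 158.8 and the retinal arrays 107.8 to 183.1, and within each group r across probe sets was 0.983 to 0.992. Neurod1 itself had signals of 4774 ± 100.4 (SD, n = 3) in the pineal controls at ZT6 and 84.5, 36.7 and 33.9 in the pools labelled cKO at ZT6. At ZT20 the pineal controls had 3376 ± 520 (SD, n = 3), but the pools labelled cKO had 28.7, 2001 and 864. As shares of the mean of controls these are 0.849%, 59.3% and 25.6%. Retinal controls had 6974 ± 481 and 7682 ± 192 (SD, n = 3) at ZT6 and ZT20, and the pools labelled cKO had 682, 599 and 277 at ZT6 and 336, 3864 and 3525 at ZT20. The last 2 are 50.3% and 45.9% of the mean of retinal night controls. In both tissues the night pools numbered 2 and 3 go against their label in part, so night results are given for pools labelled cKO. Calls that change without them are given with the results. The difference passed at ZT6 (log2 -6.22 ± 0.89, adjusted p = 0.010 in the pineal gland and -3.80 ± 0.66, adjusted p = 0.0019 in the retina) and not at ZT20 (-2.97 ± 0.89, adjusted p = 0.31 and -2.19 ± 0.66, adjusted p = 0.051). Which part of the transcript the probe set reads, inside or outside the floxed region, is unknown here. Every adjusted p is from limma, moderated over all genes tested and adjusted by Benjamini-Hochberg, and a gene is said to pass, rise or fall below 0.05.

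The control tissues were set against each other first, since this shows which chains each tissue holds. Of 35 genes tested, 18 were lower and 10 higher in control retina than in control pineal gland (12 arrays, 6 pools a tissue). In all 28 the retinal pools lay wholly on one side of the pineal pools. Of all 12928 genes tested, 30.2% had retinal pools wholly below and 25.8% wholly above the pineal pools. Most genes differ between these tissues, with 42.4% of the 12928 genes tested lower and 37.2% higher in retina. By class, 6 of 10 tested fibrillar chains were lower and 3 higher, 4 of 8 fibril-associated chains were lower and 4 higher, all 3 type VI and both type VIII chains were lower, and 2 of 6 type IV chains were higher. Of the 35, 7 passed the filter in the pineal gland alone and 6 in the retina alone, so the filter itself favours a difference there, and the size rests on a dim signal in the other tissue. The median difference of the 35 was -0.86, against -0.04 over all genes tested. As these are pools of whole organs, fewer cells of a type and less RNA per cell cannot be told apart here or below.

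Chains of interstitial fibrils were among those lower in the retina. Col3a1, the single chain of type III collagen, had pineal control signals from 4449 to 6719 with a median of 5954, and in retinal controls they ran from 33.9 to 117 with a median of 63.8. Its difference was -6.20 ± 0.21, adjusted p = 2.1e-17. Col1a2, which pairs with Col1a1 in type I collagen, ran from 5902 to 7471 with a median of 6585 in pineal and from 36.2 to 225 with a median of 108 in retinal controls (-5.79 ± 0.19, adjusted p = 8.5e-18). Col1a1 had pineal signals from 6447 to 7391 with a median of 6673 and retinal signals from 411 to 575 with a median of 527 (-3.72 ± 0.11, adjusted p = 2.3e-18), so both chains of type I collagen were lower in retina. Col5a2, a chain of the type V collagen that nucleates such fibrils, ran from 1207 to 1820.3 with a median of 1408 in pineal and from 20.9 to 33.3 with a median of 28.9 in retinal controls (-5.09 ± 0.16, adjusted p = 4.8e-18), and Col5a1 and Col5a3 differed less, by -1.22 and -1.24. Of the 8 fibril-associated chains tested, the 4 lower in retina were Col14a1 (-4.78), Col12a1 (-3.97), Col16a1 (-2.40) and Col9a3 (-1.91), and the 4 higher are given below.

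The type VI and type VIII chains were also lower in retina. Col6a2 ran from 2149 to 3227 with a median of 2583 in pineal controls and from 176 to 352 with a median of 229 in retinal controls (-3.40 ± 0.13, adjusted p = 2.9e-16). Col6a1 was closer between tissues, with 2906, 3009 and 2772 in pineal control pools at ZT6 and 2879, 3469 and 3396 at ZT20, against 2544, 1799 and 1463 and 1723, 1455 and 1350.1 in the retina (-0.86 ± 0.12, adjusted p = 4.9e-07). Col6a3 differed by -2.75 ± 0.54 with the widest error of the 35, and 2 of its 6 retinal control pools stood far above the others: it had 91.3, 19.7 and 452 at ZT6 and 382, 50.8 and 53 at ZT20. Col8a1 and Col8a2, the chains of type VIII collagen, differed by -3.42 ± 0.10 and -2.28 ± 0.17. Among single genes of other classes, Col13a1 (transmembrane, -2.26), Col15a1 (multiplexin, -2.11) and Col7a1 (anchoring fibrils, -1.83) were lower in retina as well.

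The 10 genes higher in retina included chains of cartilage and vitreous. Col9a1 had control signals of 2894, 2506 and 2364 at ZT6 and 2056, 1889 and 1599.5 at ZT20 in the retina and of 24.3, 56.7 and 60.8 and 23.4, 46.6 and 40.1 in the pineal gland (5.29 ± 0.25, adjusted p = 6.3e-15). Col2a1, the single chain of type II collagen, had 911, 554 and 548 and 763, 582 and 581 in the retina and 38.1, 25.8 and 24.8 and 17.4, 31.9 and 29.8 in the pineal gland (3.92 ± 0.14, adjusted p = 5.6e-17). Col9a1 and Col9a3, chains of the same type IX trimer, thus differed in opposite directions, and Col9a2, the other chain of that trimer, was too dim to test. Col19a1 (2.94), Col25a1 (2.03), Col24a1 (1.91), Col22a1 (1.48), Col20a1 (1.10) and Col27a1 (0.91) followed, with Col25a1 being the chain first isolated from amyloid plaques. Of type IV chains, Col4a4 (1.73 ± 0.19, adjusted p = 1.6e-08) and Col4a3 (0.64 ± 0.22, adjusted p = 0.0099), which assemble with Col4a5 in kidney and lens capsule, were higher in retina, although the Col4a3 call was lost on the values as deposited (adjusted p = 0.064). Col4a1, Col4a2, Col4a5, Col4a6, Col11a1, Col18a1 and Col23a1 did not pass, with differences from -0.33 to 0.43. All 19 other probe sets that were tested, for 15 of the 28 genes, had the same sign and passed.

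**Figure D1:**
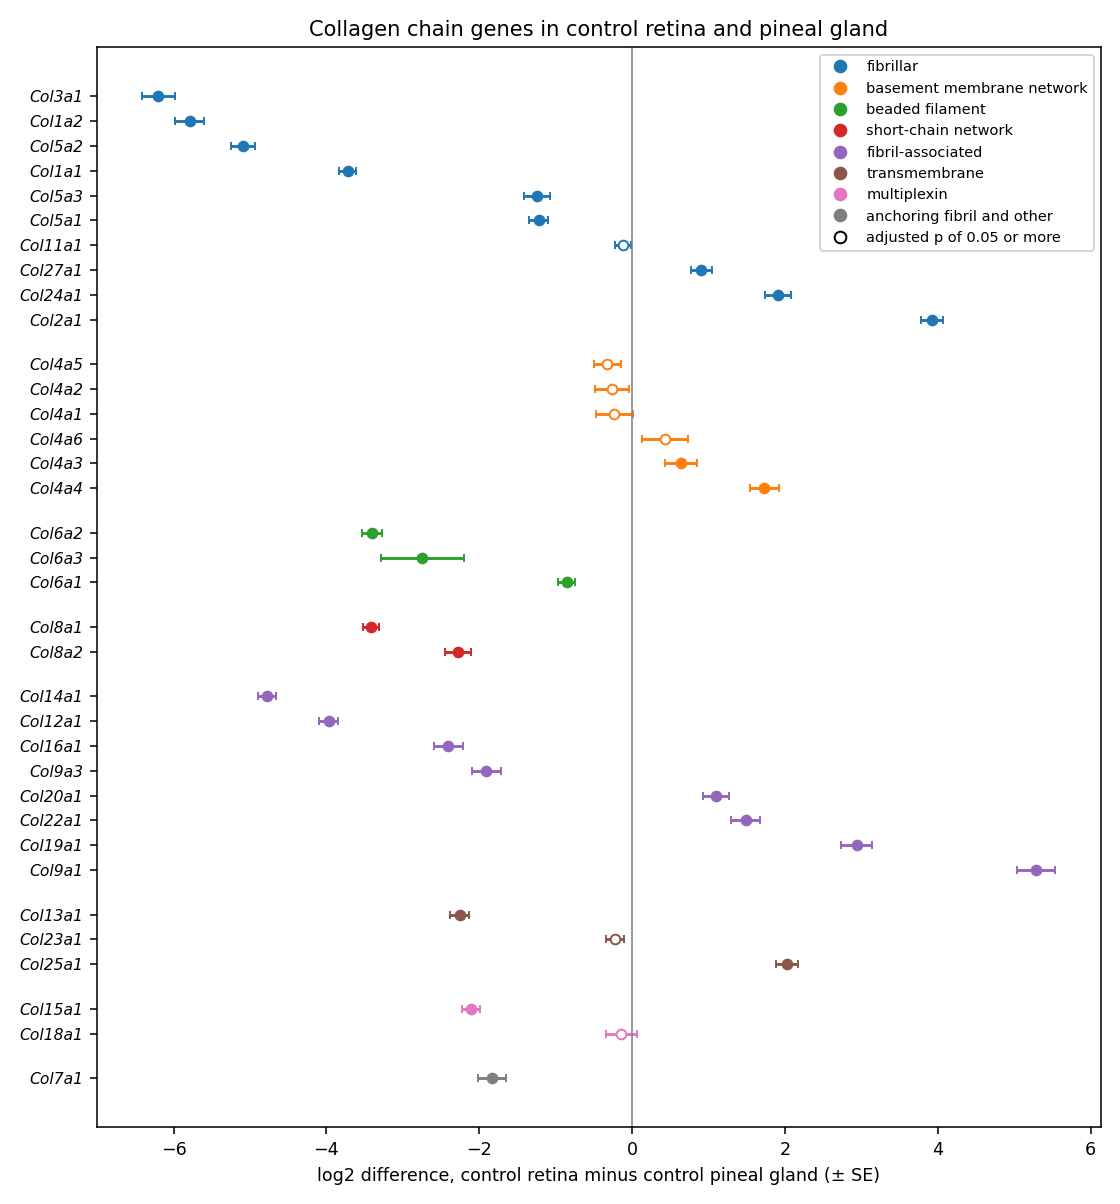
Log2 differences between control retina and control pineal gland (x axis; points, estimate; bars, SE; 6 pools a tissue) for the 35 collagen chain genes tested, ordered by class and coloured by it, with open points for genes that did not pass. The fibrillar and fibril-associated classes hold both the lowest value, Col3a1 at -6.20, and the highest, Col9a1 at 5.29, while most basement membrane chains lie near 0.

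Genes that work with collagen were read from 6 lists with 108 members on the arrays. Of 20 tested genes for folding and hydroxylation 15 were lower in retina and 4 higher, with the collagen chaperone Serpinh1 at -3.59, where 42.4% of all genes were lower and 37.2% higher. Of 10 genes for processing and cross-linking 8 were lower, among them the lysyl oxidases Lox (-5.32) and Loxl1 (-3.25), and all 19 tested collagen-binding proteoglycans and partners were lower, led by Lum (-5.89) and Thbs2 (-5.64). Of 11 receptors 9 were lower, including Mrc2 (-5.16) and the collagen receptor kinase Ddr2 (-4.21). Of 18 laminins, nidogens and other basement membrane genes 14 were lower and 1 higher, and of 13 collagen-degrading enzymes and inhibitors 11 were lower and 1 higher. Marker lists of other cells moved the same way, with 10 of 11 meningeal fibroblast, 11 of 13 endothelial and mural, 9 of 9 choroid plexus and 6 of 6 bone and osteoclast markers lower in retina. The summed fibroblast markers were 21622 to 32656 in pineal controls and 1452 to 4506 in retinal controls, and 4 of the 11 lay below the array median in every retinal control pool. Lens markers went the other way, 7 of 8 being higher in retina, with summed signals of 26228 to 70830 in retinal and 9495 to 11642 in pineal controls. The part of these cells in the collagen differences was not tested. As a check of the tissue labels, the pinealocyte markers Tph1, of serotonin synthesis, and Chrnb4 had differences of -6.31 and -6.24. All 5 rod markers were higher. The 8 pinealocyte markers as a list stood closer, with sums of 46734 to 51035 in pineal and 39920 to 44645 in retinal controls. Of these 8, 5 lay above the array median in all 3 retinal control pools at each time.

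The cKO retina was compared with control retina at each time. At ZT6 4 of 28 collagen genes rose and 6 fell, against 9.47% and 7.12% of all 11748 genes tested, and averaged over both times 4 rose and 6 fell, against 13.5% and 11.8%. The same 10 genes passed in both, and the comparisons share the ZT6 pools. At ZT20, with the pools labelled cKO of which 2 kept much Neurod1 signal, 1 rose and 1 fell, against 5.65% and 4.68%. The median difference of the 28 genes was -0.12 at ZT6 and 0.16 at ZT20, against 0.02 and -0.00 for all genes. Leaving out pools 2 and 3 labelled cKO at ZT20 leaves 1 pool in that group. The Col1a2 call at ZT6 was then lost, and over both times those of Col1a2, Col9a1, Col19a1 and Col24a1. Every collagen gene that still passed is among those named below. The split depends on the scaling: on the values as deposited, where the median of all genes shifts to 0.29 at ZT6 and 0.20 over both times, 5 rose and 2 fell at ZT6 and 7 rose and 2 fell over both times. The falls of Col1a1, Col9a1, Col20a1 and Col24a1 were lost there.

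Col25a1, a transmembrane chain whose shed ectodomain binds amyloid fibrils and which motor neurons need to reach muscle, rose at both times. Its control signals were 1820.4, 2276 and 2325 at ZT6 and 1492, 1838 and 1411 at ZT20. In the cKO retina they were 4339, 4209 and 3967 at ZT6 and 4632, 4358 and 4471 at ZT20. All 6 cKO pools lay above all 6 control pools, including the 2 night pools with residual Neurod1, and the difference was 0.96 ± 0.11, adjusted p = 9.3e-05 at ZT6 and 1.505 ± 0.11, adjusted p = 2.6e-06 at ZT20, or 2.35-fold over both times. The second Col25a1 probe set lay above the array median on 0 of 12 retinal arrays, so the rise rests on 1 set. Col22a1, found at tissue junctions such as that of muscle and tendon, fell at both times. It lay above the array median on 6 of 12 retinal arrays, so it entered the fit through the controls and the size of its fall rests on dim cKO signals. It had 276, 244 and 207 and 197, 205 and 209 in controls and 59.9, 68.5 and 49.8 and 48.3, 89.9 and 79.5 in cKO pools at ZT6 and ZT20 (-1.78 ± 0.20, adjusted p = 9.6e-05 and -1.34 ± 0.20, adjusted p = 9.7e-04). Here too no cKO pool reached the lowest control pool.

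Of the fibrillar chains, Col27a1, a chain of cartilage fibrils, fell at ZT6 from 544, 415 and 343 in controls to 188, 186 and 166 in cKO pools (-1.18 ± 0.19, adjusted p = 0.0012). At ZT20 the pools overlapped, with 281, 336 and 305 in controls and 221, 322 and 195 in cKO, and the gene did not pass. Col24a1 fell at ZT6 from 199, 196 and 219 to 166, 126 and 104 (-0.60 ± 0.17, adjusted p = 0.031), and at ZT20, when it had 194, 239 and 240.1 in controls and 179, 168 and 147 in cKO pools, it did not pass although the pools did not overlap.

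The type I chains went in opposite directions in the retina, each read there by 1 tested probe set. The second Col1a1 set had 39.3 to 105 in the retinal pools, above the array median on 0 of 12, so it was not tested. Col1a1 fell at ZT6 from 518, 559.7 and 575 to 212, 233 and 384 (-0.999 ± 0.21, adjusted p = 0.0056), and at ZT20 it had 411, 423 and 536 in controls and 400.4, 611 and 438 in pools labelled cKO. The ZT20 pools overlapped, and the Col1a1 call over both times was lost in 9 of 24 alternatives, mostly those without 1 pool. Col1a2 rose at ZT6 from 86.9, 36.2 and 137 to 164, 176 and 219 (1.10 ± 0.34, adjusted p = 0.043), and at ZT20 it had 225, 94 and 123 in controls and 244, 201 and 220.0 in cKO pools, overlapping at control pool 1. It lay above the array median on 8 of 12 retinal arrays, among them every cKO pool. It thus entered the fit largely through the cKO pools, and the size of its rise rests on dim control signals. The Col1a2 call at ZT6 lies close to the threshold and was lost in 12 of 24 alternatives, 9 of which left out 1 pool (any but control ZT6 pool 3 and control ZT20 pools 1 and 2), with adjusted p up to 0.17. Col2a1 did not pass in the retina and Col3a1 was too dim there for the fit: Col2a1 had 613, 829 and 723 and 829, 587 and 879 in cKO pools at ZT6 and ZT20, within its control range, and Col3a1 had 35.1, 52.3 and 98.1 and 149.9, 79.8 and 86.4 against 41.7, 63.9 and 81.6 and 63.7, 33.9 and 117 in controls.

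Of fibril-associated chains, Col20a1 fell at ZT6 from 437, 280.4 and 188 to 138, 172 and 147 (-0.84 ± 0.25, adjusted p = 0.036), and its difference over both times was -0.77 ± 0.18, adjusted p = 0.0062. Col9a1 fell at ZT6 from 2894, 2506 and 2364 to 1954, 1900.1 and 1826 (-0.44 ± 0.11, adjusted p = 0.012) and at ZT20 had 2056, 1889 and 1599.5 in controls and 1803, 1718 and 1900.3 in cKO pools, with overlap. Its second probe set had differences of the same sign that did not pass (-0.25 ± 0.23, adjusted p = 0.48). Of type VIII, Col8a1 rose at ZT6 from 692, 720.2 and 890.3 to 1020.2, 1077 and 1672 (0.67 ± 0.19, adjusted p = 0.029) and also over both times (0.58 ± 0.14, adjusted p = 0.0065), with 749, 726 and 775 and 967, 1389.5 and 896 at ZT20. All 6 cKO pools lay above all 6 control pools. The other Col8a1 probe sets lay above the array median on 0 of 12 retinal arrays, so the retinal rise rests on 1 set. Calls at ZT6 that leaving out 1 pool ended were Col8a1 (control pools 1 and 2, cKO pool 3), Col9a1 (control pool 1, cKO pool 3), Col20a1 (control pools 1 and 2, any cKO pool), Col24a1 (any control pool, cKO pools 2 and 3) and Col19a1 (cKO pool 1), all of ZT6, with adjusted p up to 0.13, 0.44, 0.23, 0.35 and 0.072 over all alternatives.

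Col19a1, made by subsets of neurons and needed for certain synapses in the brain, gave different answers by probe set. The set that represents the gene here, the brightest by mean deposited signal though not in these controls, rose at ZT6 from 353, 407 and 338 in controls to 727, 594 and 538 in cKO pools (0.73 ± 0.18, adjusted p = 0.016). The second set fell from 528, 709 and 648 to 326, 182 and 158 (-1.49 ± 0.26, adjusted p = 0.0020, adjusted over a fit of all probe sets of these genes and 1 per other gene). The remaining set had -0.12 ± 0.20, adjusted p = 0.72. The genotype difference of this gene therefore has no settled direction here, and whether the sets read different transcripts was not tested. All 3 sets fell from day to night in control retina: the first to 148, 259 and 163 at ZT20 (-0.92 ± 0.18, adjusted p = 0.033), the second with -1.46 ± 0.26, adjusted p = 0.023, and the remaining set with -1.07 ± 0.20, adjusted p = 0.029.

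**Figure D2:**
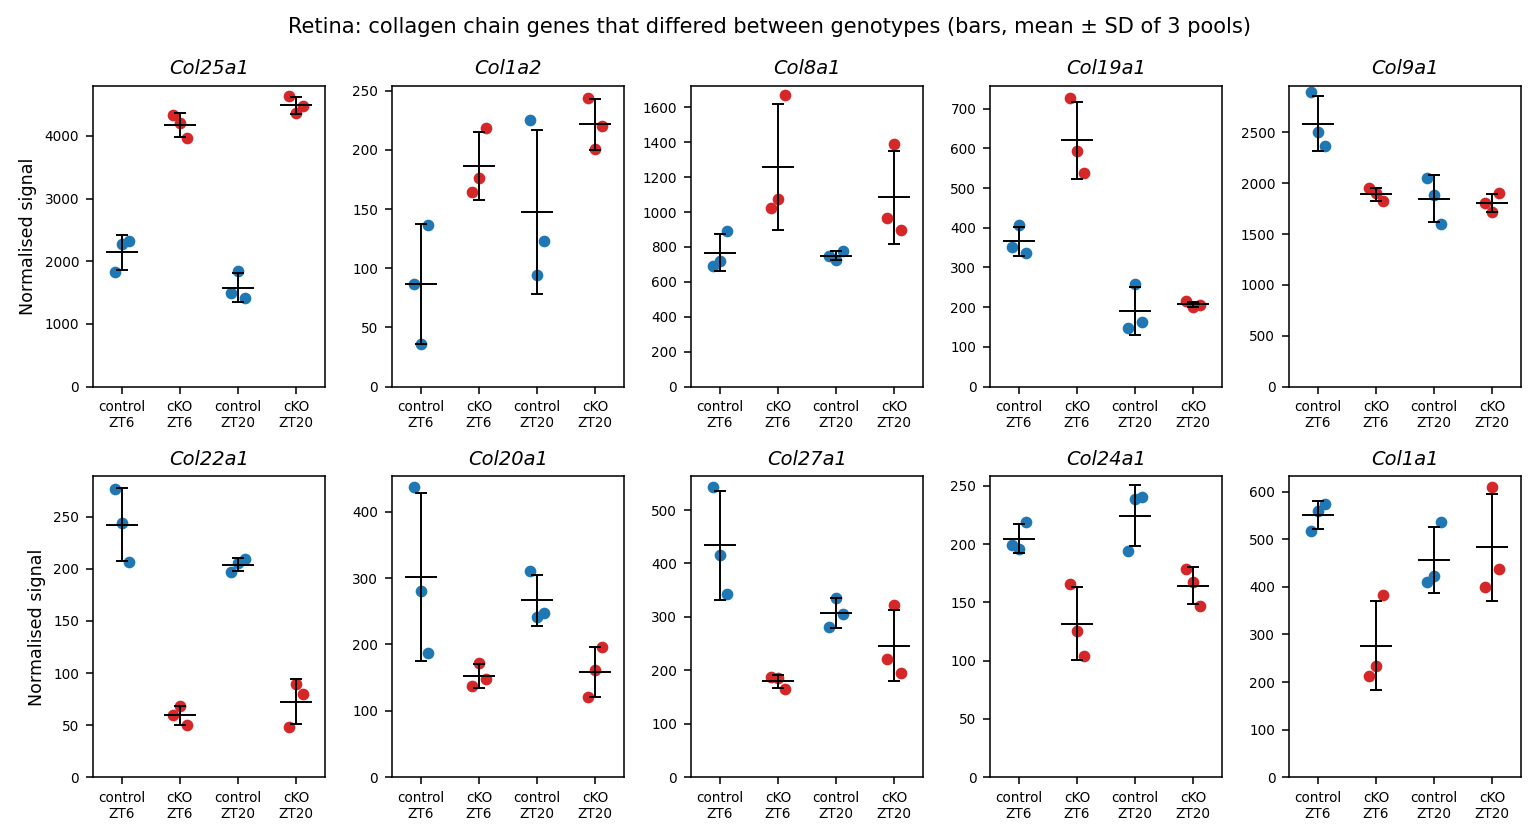
Normalised signal (y axes from 0, linear) of the 10 collagen chain genes that passed between genotypes in the retina at ZT6, by genotype and time (points, pools; blue, control; red, cKO; bars, mean ± SD of 3 pools). Col25a1 in the cKO pools lies between 3967 and 4632, above the highest control pool at 2325, and Col22a1 in the cKO pools lies below 90.

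Between day and night the retina moved little. In controls 2 of 28 collagen genes fell at ZT20 and none rose, against 0.562% of all genes that fell, namely Col19a1 and its neighbour Col9a1 (-0.48 ± 0.11, adjusted p = 0.044). In cKO pools Col19a1 alone passed, falling from 727, 594 and 538 to 215, 201 and 205 (-1.50 ± 0.18, adjusted p = 0.0041; 0.196% of all genes fell). The Col9a1 call was lost in 15 of 24 alternatives and the Col19a1 call in controls in 8, including without control ZT6 pool 1 or 2 or control ZT20 pool 1 or 3, and in cKO it was lost without night pools 2 and 3 (adjusted p = 0.11). No collagen gene passed for a genotype difference that changed with time, and 0% of all genes passed. In limma 6 of 28 had an unadjusted p under 0.05 for it, as did 947 of all 11748 genes.

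Around the collagen chains, genes of their metabolism rose in the cKO retina averaged over both times. Of 8 tested genes for processing and cross-linking 5 rose and none fell, with the procollagen C-proteinase enhancer Pcolce at 2.59 ± 0.18, adjusted p = 5.3e-07 and the transglutaminase Tgm2 at 1.34. Of 16 collagen-binding partners 10 rose and none fell, led by Fbln1 (2.27), Fmod (1.70) and Matn2 (1.33). Of 19 folding and hydroxylation genes 6 rose and 1 fell, including Tmem38b (1.12), P3h3 (0.79) and Serpinh1 (0.72). Of 8 receptors 4 rose, among them Cd44 (1.87) and Ddr2 (1.07), and of 12 laminins and other basement membrane genes 6 rose. Of 10 degrading enzymes and inhibitors 5 rose and none fell, with the metalloproteinase inhibitor Timp1 at 3.01 ± 0.19, adjusted p = 2.2e-07. Of all genes tested, 13.5% rose and 11.8% fell.

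Markers of other cells moved with these genes. All 5 tested microglia markers rose over both times, with C1qb at 1.92 and Csf1r at 1.02, and the 7 listed markers on the arrays summed to 1740 to 2465 in control and 5522 to 8256 in cKO retinal pools. Of 8 Müller glia markers 7 rose (Kcnj10 0.95, Apoe 0.75), with sums of 39780 to 47186 in control and 50525 to 55645 in cKO pools. Of 5 rod markers 4 fell by small amounts (Pde6b -0.33, Nrl -0.27), with sums of 47746 to 51974 in control and 40229 to 45122 in cKO pools. Meningeal fibroblast markers, which also mark other fibroblasts, rose in 2 of 7 tested, with sums of 1452 to 4506 in control and 2023 to 6054 in cKO pools, and endothelial and mural markers in 2 of 10, with sums of 6633 to 10409 and 9592 to 11896. Of 6 tested pigment epithelium markers Mlana, which also marks melanocytes, rose (2.22) and Rpe65 fell (-0.59), and none of 8 lens markers passed. The part of microglia, glia, fibroblasts, vessels or pigment cells in the collagen differences was not tested.

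A set of 4 retinal pools stood apart for type IV chains. Control ZT6 pool 3, control ZT20 pool 1 and cKO ZT20 pools 1 and 2 had signals of 834 to 1953 for Aldh3a1, an enzyme abundant in cornea, against 41.9 to 180.4 in the other 8 pools. Aldh3a1 is 1 of 4 listed cornea, sclera and ciliary body markers on the arrays. In each group that holds these pools, 2 of those markers exceeded the array median in no pool. In the same 4 pools Col4a1 was 2048 to 3355 against 777 to 1549 elsewhere, and its second probe set 1065 to 1857 against 174 to 403. Col4a2 was 1732 to 2718 against 796 to 1235, Col4a3 1145 to 1687 against 521 to 1069.7, Col4a4 547 to 717 against 333 to 507 and Col4a5 1315 to 2157 against 731 to 1149. Col6a3 was 382 to 452 against 19.7 to 168. It lay above the array median on 5 of 12 retinal arrays, these 4 among them, so it entered the fit largely through them. These 6 genes were the only ones of 28 whose lowest value in the 4 pools exceeded the highest in the other 8, as did 0.775% of all 11748 genes tested. Col18a1 overlapped, with 165, 100.3 and 278 and 408, 205 and 206 in controls and 245, 303 and 237 and 325, 401 and 342 in cKO pools at ZT6 and ZT20. The lens gene Mip (3263 to 6008 against 101.4 to 6734) and the melanocyte gene Mlana (1587 to 4599 against 104 to 2988) were high in these pools and in cKO ZT6 pool 3, so they did not separate them.

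The 4 pools hold 2 of the 3 night pools labelled cKO and 1 of the 3 night control pools. Col4a1 at ZT20 had 2842, 908 and 777 in controls and 3355, 2168 and 1549 in cKO pools, and at ZT6 1233, 927 and 2048 and 1002, 1428 and 1432, and Col4a2 followed it with 2718, 901 and 897 and 2575, 1770.0 and 1235 at ZT20 and 1111, 796 and 1732 and 900.0, 1114 and 1053 at ZT6. All 6 type IV chains had a higher mean in cKO than in control pools over both times, and none passed. An alternative chosen after seeing the data left out the 4 pools. Its only night pool labelled cKO is pool 3, assumed to vary like the other groups. That pool has Neurod1 at 45.9% of the control mean, in part against its label, so no counts of genotype calls are given. Col4a6, Col18a1 and Col4a1 had not passed with all pools. Their differences over both times were then 1.34 ± 0.21, 0.81 ± 0.18 and 0.56 ± 0.15, higher in cKO. Of the pools left, only cKO pools had Col4a6 above the array median. It thus entered that fit through the group where it is high. The Col1a1, Col9a1 and Col19a1 calls over both times were lost.

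**Figure D3:**
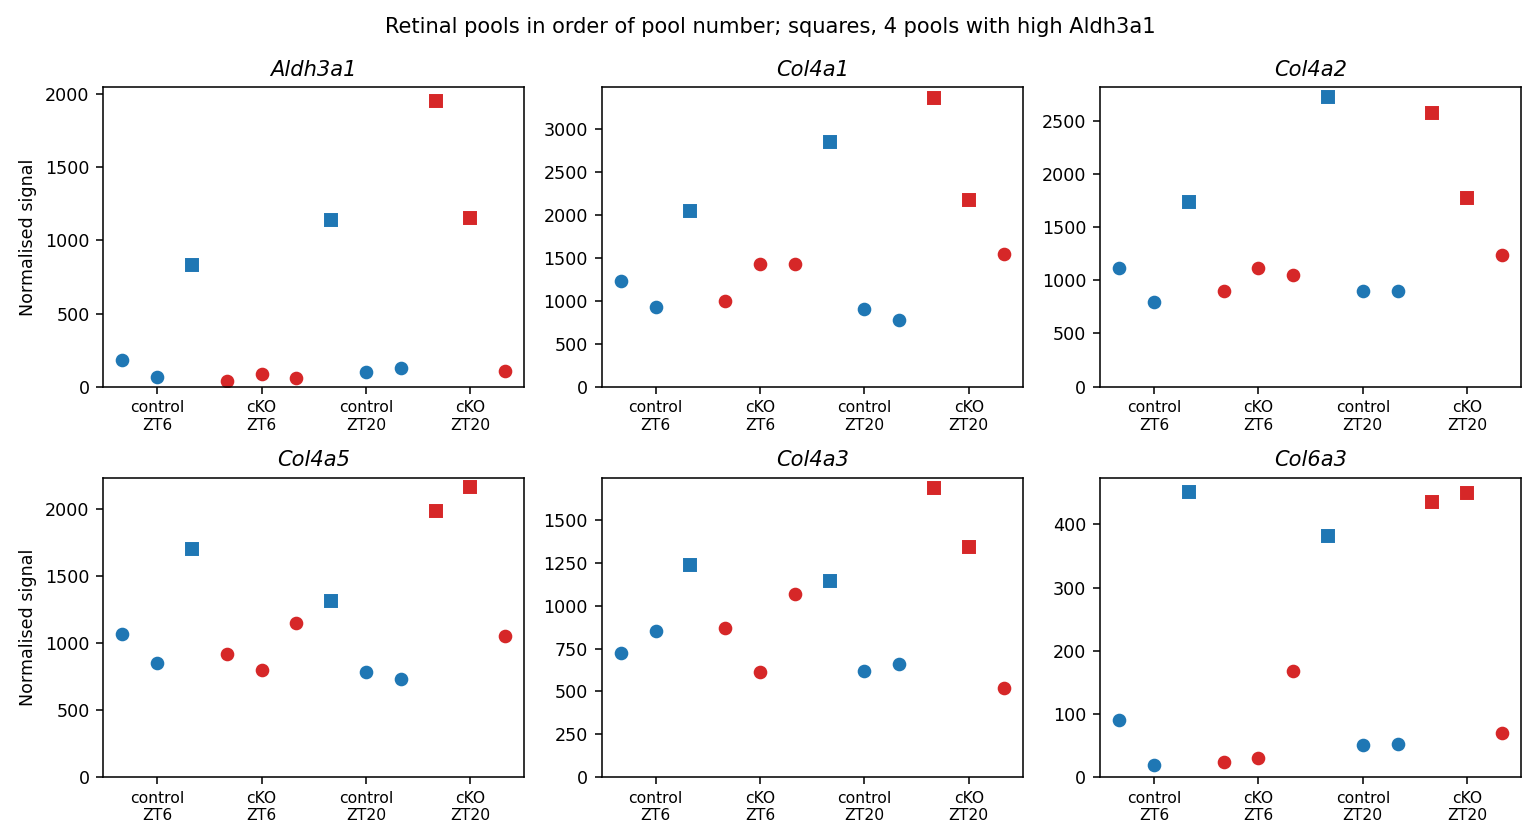
Normalised signal (y axes from 0, linear) of Aldh3a1, which is not a collagen gene, and of 5 collagen chain genes in the 12 retinal pools, in order of pool number within each group (blue, control; red, cKO; squares, the 4 pools with Aldh3a1 of 834 to 1953; circles, the other 8). The squares are the 4 highest values for all 5 collagen genes.

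In the pineal gland few collagen genes passed between genotypes. At ZT6 none of 29 collagen genes passed in limma, against 1.83% of all 11984 genes. At that time 9 had an unadjusted p under 0.05, as did 2413 of all genes. At ZT20 none passed, as 0% of all genes did, and 14 had an unadjusted p under 0.05, as did 953 of all genes. There the 3 pools labelled cKO lay below the 3 control pools without overlap for 12 of 29 collagen genes and above for none. Of all genes, 5.77% lay below and 5.5% above. Averaged over both times 5 collagen genes fell and none rose, against 1.16% of all genes that fell. With arrays centred on their medians 3 fell and 3 rose. Over alternatives other than single pools, the number of all genes passing ran from 2 to 5178, so that split is not set against the share above. The median difference of the 29 was -0.15 over both times, against 0.02 for all genes, and it was -0.27 on the values as deposited and -0.00 with arrays centred on their medians, where the median of all genes was -0.06 and 0.20. Where 2 sets of 3 values follow each other below, the first is from ZT6 and the next from ZT20. The 5 were 3 of 8 tested fibrillar chains and 2 of 3 tested type VI chains.

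Col6a3, which gives type VI filaments their long chain, had pineal control signals of 737, 898 and 704 at ZT6 and 539.6, 1069 and 988 at ZT20. In cKO pools it had 431, 531 and 295 and 454, 455 and 571 (-0.82 ± 0.16, adjusted p = 0.024 over both times). At ZT6 the pools did not overlap, and at ZT20 control pool 1 lay within the cKO range. Col3a1 had 5497, 6412 and 5240.0 and 4449, 6719 and 6655 in controls and 4217, 5059 and 3709 and 4074, 3631 and 4213 in cKO pools (-0.48 ± 0.10, adjusted p = 0.028). Its neighbour Col5a2 had 1375, 1442 and 1207 and 1322, 1652 and 1820.4 in controls and 971, 1352 and 856 and 1059.7, 977 and 1169.8 in cKO pools (-0.46 ± 0.11, adjusted p = 0.044).

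Col1a1 had 6533, 6724 and 6447 and 6622, 7031 and 7391 in controls and 5761, 6273 and 5937 and 5209, 5270.3 and 6072 in cKO pools (-0.24 ± 0.04, adjusted p = 0.016). It was the only gene of the 5 whose 6 cKO pools all lay below the 6 control pools. Col6a1 had 2906, 3009 and 2772 and 2879, 3469 and 3396 against 2636, 2866 and 2570.3 and 1988, 2329.6 and 2672 (-0.29 ± 0.07, adjusted p = 0.0498). Col1a2 had 6121, 6835 and 5902 and 6335, 7471 and 7331 against 5688, 6738 and 5106 and 5093, 5646 and 5825 and did not pass with this probe set (-0.23 ± 0.07, adjusted p = 0.082), but did with its second (-0.50 ± 0.10, adjusted p = 0.019). Second probe sets of Col1a1, Col3a1 and Col5a2 also fell. These calls are fragile: 0 of the 5 passed without pools 2 and 3 labelled cKO at ZT20, without pool 3 of each genotype at ZT6 (the pools with the highest summed rod markers, 9045 and 7305), or without the variance trend. With arrays centred on their medians Col6a3 kept its call, and Col1a1 (-0.00, adjusted p = 0.98), Col3a1 (-0.24, adjusted p = 0.063), Col5a2 (-0.28, adjusted p = 0.084) and Col6a1 (-0.08, adjusted p = 0.49) lost theirs. Leaving out 1 pool ended the Col6a3 call for control ZT6 pool 1, control ZT20 pools 2 and 3 and cKO ZT20 pool 2, ended no Col1a1 call, and ended the Col3a1, Col5a2 and Col6a1 calls for 7, 9 and 10 of the 12 pools, with 1 to 7 genes passing.

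Same-numbered pools deviated together at ZT6 in the pineal gland (r = 0.27, 0.33 and 0.43), so that comparison was also fitted with the pool number as a replicate block. The block spans all 4 pineal groups, night pools included. Over all pairs of these groups, r of same-numbered pools ran from -0.22 to 0.43, and 9 of 18 exceeded 0.1. The labels do not say that the numbers pair samples, so the pairing was read from these data. With the block 2 genes passed at ZT6, Col6a3, lower in cKO (-0.90 ± 0.21, adjusted p = 0.034), and Col15a1, a basement membrane proteoglycan of vessels, higher in cKO (0.51 ± 0.12, adjusted p = 0.038). Of all genes 485 passed with the block and 219 without. Col15a1 had 313, 272 and 282 in control and 419, 384 and 457 in cKO pools at ZT6.

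Beside this, markers of other tissue in the dissected pineal gland also differed. The 6 bone and osteoclast markers summed to 7157, 2783 and 2715 in control pools at ZT6 and 1047, 3004 and 2863 at ZT20, against 1049 to 1876 and 990.5 to 1720 in cKO pools, and 3 of the 6 fell over both times (Mmp13 -1.60, Ctsk -0.71, Sp7 -0.58). Meningeal fibroblast markers fell in 2 of 11 (Slc22a6 -0.67, Ogn -0.29), with sums of 21622 to 24562 in control and 22546 to 26894 in cKO pools at ZT6 and of 25383 to 32656 and 22524 to 25842 at ZT20. Microglia markers fell in 2 of 7, with sums of 10634 to 12856 in control and 8351 to 10413 in cKO pools. Of 13 endothelial and mural markers none passed over both times or at ZT20, but all 13 had a negative difference at ZT20 (median -0.38, against 0.01 for all genes), with sums of 20009 to 23252 in control and 16696 to 17214 in cKO pools, which did not overlap. At ZT6 these sums were 16938 to 18936 and 15692 to 19358. Choroid plexus markers did not pass in any of 9, with sums at ZT6 of 32020 to 37308 in control and 42645 to 46343 in cKO pools. Their part in the collagen differences was not tested. Of the collagen-related lists, 2 of 19 matrix partners fell (Postn -0.86, Ogn), 3 of 13 degrading enzymes (Mmp13, Ctsk and Fap, -0.31) and 1 of 11 receptors (Ddr2, -0.35), and none of the tested folding, processing or basement membrane genes passed.

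Control pineal glands were compared between day and night. Of 29 genes 4 rose and 1 fell from ZT6 to ZT20, against 12.3% and 13.5% of all genes. Col4a1 rose from 1321, 1328 and 1212 to 1606, 2150.3 and 1705 (0.48 ± 0.12, adjusted p = 0.0080), and its head-to-head neighbour Col4a2 from 1269, 1309 and 1102 to 1596, 2028 and 1739.6 (0.53 ± 0.12, adjusted p = 0.0048). The night pools lay above the day pools for both, and the second Col4a1 probe set agreed in sign and passed (0.71 ± 0.14, adjusted p = 0.0025). Col14a1, a regulator of fibril diameter, rose from 773, 918 and 692 to 1209, 1539 and 1129 (0.69 ± 0.16, adjusted p = 0.0058) and Col15a1 from 313, 272 and 282 to 437, 365 and 433 (0.49 ± 0.13, adjusted p = 0.015). Col4a5, the chain mutated in X-linked Alport syndrome, fell from 1428, 1442 and 1672 to 1151, 1302 and 899 (-0.44 ± 0.12, adjusted p = 0.016). Among type IV chains, the pair found in most basement membranes thus rose while Col4a5 fell. The Col15a1 call was lost without control ZT6 pool 2 or control ZT20 pool 1 or 3, and the Col4a5 call without control ZT6 pool 3 or control ZT20 pool 3, with adjusted p up to 0.13 and 0.18 over all alternatives.

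In cKO pools the same genes behaved as follows at night. Col4a5 again fell, from 1507, 1353 and 1639.7 to 1144, 1036 and 1174 (-0.42 ± 0.12, adjusted p = 0.028), as did 9.74% of all genes. Nothing else passed with the probe sets that represent the genes. Col8a1 differed by probe set, and its main set had 8754, 8044 and 8367 by day and 8922, 8467 and 9712 by night. A second set had 1919, 1912.5 and 1518 by day and 2769, 2688 and 2392 by night. The remaining set had 2314, 1948 and 2040 and 3465, 3073 and 3124. In controls these other sets were also higher in every night pool than in any day pool. Col4a1 had 1589, 1727 and 1327 by day and 1187, 1403 and 1308 by night, and Col4a2 1613, 1673 and 1269 and 1098, 1292 and 1206 (-0.33 ± 0.12, adjusted p = 0.066). Col14a1 had 1073, 828 and 719 and 639.6, 822 and 810.0, and Col18a1, the endostatin precursor, had 319.9, 383 and 249 and 168, 289.8 and 191 after 224, 255 and 188 and 217, 346 and 192 in controls. The test of the genotype difference between night and day itself gave no call, and 0% of all genes passed. In limma 7 of 29 had an unadjusted p under 0.05 for it, as did 1159 of all 11984 genes. Its smallest adjusted p among collagen genes was that of Col4a2 (-0.86 ± 0.17, adjusted p = 0.14), beside Col14a1 with -0.88 ± 0.22, adjusted p = 0.31. It is therefore not shown that the day-night differences of these genes differ between genotypes. The part of the residual Neurod1 in 2 of the night pools was not tested.

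**Figure D4:**
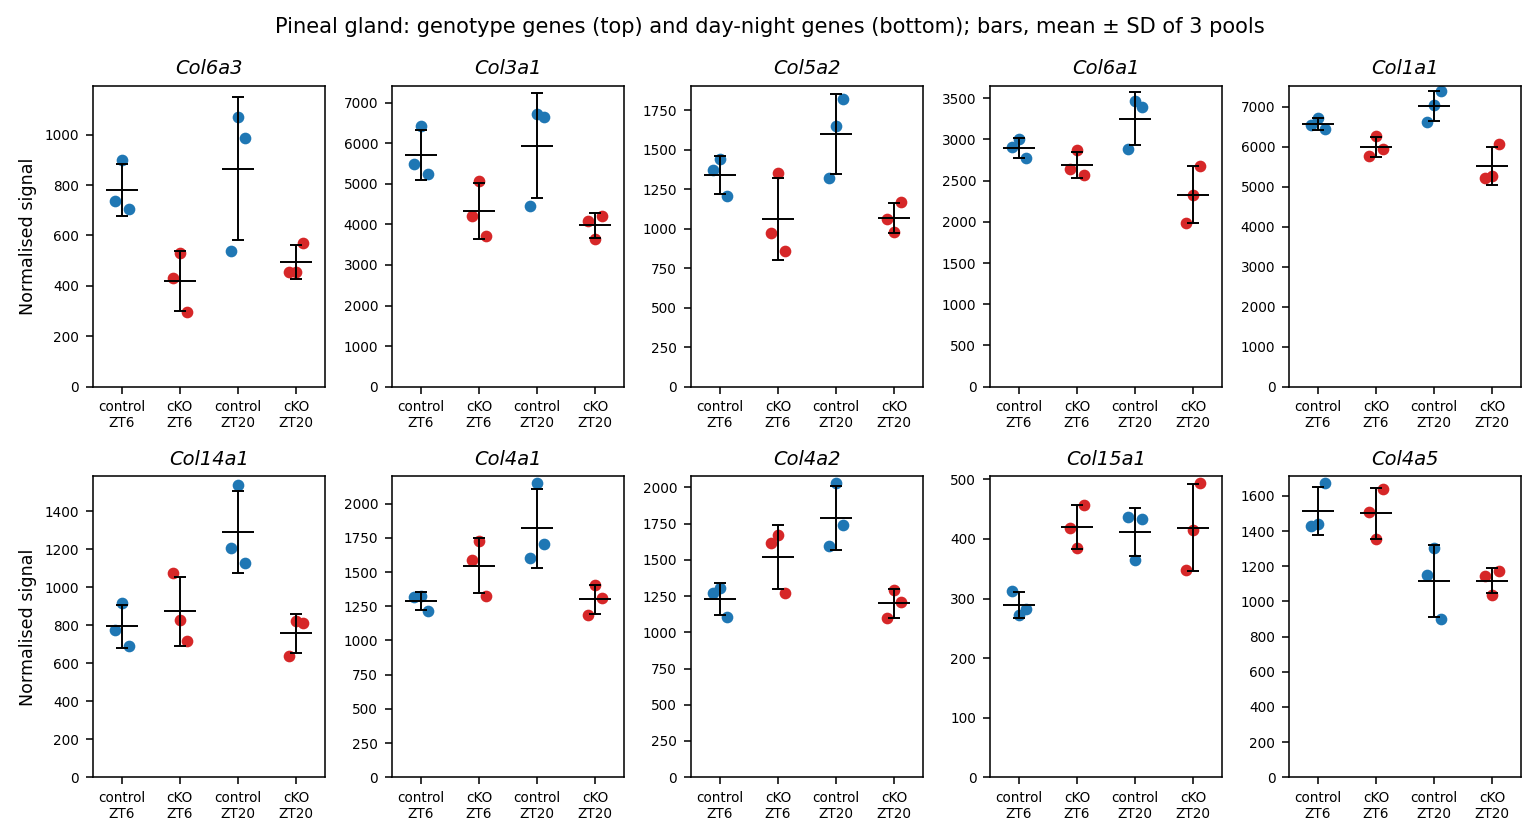
Normalised signal (y axes from 0, linear) in the pineal gland by genotype and time (points, pools; blue, control; red, cKO; bars, mean ± SD of 3 pools) for the 5 genes that fell in cKO averaged over both times (top) and the 5 that passed between ZT6 and ZT20 in controls (bottom). Col1a1 in cKO pools lies at 6273 or below and in control pools at 6447 or above, and Col4a2 in controls rises from at most 1309 by day to at least 1596 by night.

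Genes of collagen metabolism were read in the same control pools, in which 12.3% of all genes rose and 13.5% fell. Of 19 folding and hydroxylation genes 6 rose and none fell, among them the prolyl hydroxylase P4ha1 (0.70), Plod1 (0.65) and Serpinh1 (0.62). Of 18 basement membrane genes 4 rose and 1 fell (Lamc1 0.46, Npnt -0.40), of 19 matrix partners 5 rose and 1 fell (Fbln1 0.66, Vcan -0.61), and of 9 processing genes 2 rose and 1 fell (Lox 0.49, Adamts3 -1.09). Of 11 receptors 3 rose, with Itga1 at 0.84, and of 13 degrading enzymes and inhibitors 2 rose and none fell. Endothelial and mural markers rose in 7 of 13 (Abcc9 0.75, Cdh5 0.43), with sums of 16938 to 18936 by day and 20009 to 23252 by night, and meningeal fibroblast markers in 4 of 11, with sums of 21622 to 24562 and 25383 to 32656. Whether more vessel or meninges in the night pools took part in the collagen rises was not tested.

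The genotype difference itself was compared between the tissues, using the same pools as the comparisons above. Of 35 genes 4 had a higher and 2 a lower cKO-minus-control difference in retina than in pineal gland over both times, against 8.68% and 7.22% of all 12928 genes tested. Col25a1 gave 1.23 ± 0.08 in the retina and -0.15 ± 0.17 in the pineal gland (difference 1.39 ± 0.20, adjusted p = 4.0e-05). Col1a2 gave 0.86 ± 0.24 and -0.23 ± 0.07 (difference 1.09 ± 0.27, adjusted p = 0.0063), Col8a1 0.58 ± 0.14 and 0.08 ± 0.04 (difference 0.51 ± 0.15, adjusted p = 0.020) and Col20a1 -0.77 ± 0.18 and 0.26 ± 0.15 (difference -1.03 ± 0.24, adjusted p = 0.0046). Col5a3, too dim for the retinal fit, and Col22a1, too dim for the pineal fit, differed by 0.80 ± 0.24, adjusted p = 0.022 and -0.997 ± 0.28, adjusted p = 0.015; each entered this comparison through 1 tissue only. The pineal signals of Col25a1 were 504, 502 and 452 and 452, 379 and 347 in controls and 377, 344 and 593 and 222, 478 and 423 in cKO pools, with broad overlap. Col27a1, which fell in the retina, had a pineal difference of -0.48 ± 0.13, adjusted p = 0.073, and its difference between tissues did not pass (-0.28 ± 0.19, adjusted p = 0.36). On the values as deposited, where the median of all genes in this comparison shifts to 0.27, 11 collagen genes were higher and none lower, so the split of 4 and 2 depends on the scaling of the arrays. The Col20a1 and Col22a1 calls were lost there, and the Col5a3 and Col8a1 calls were lost without pools 2 and 3 labelled cKO at ZT20.

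**Figure D5:**
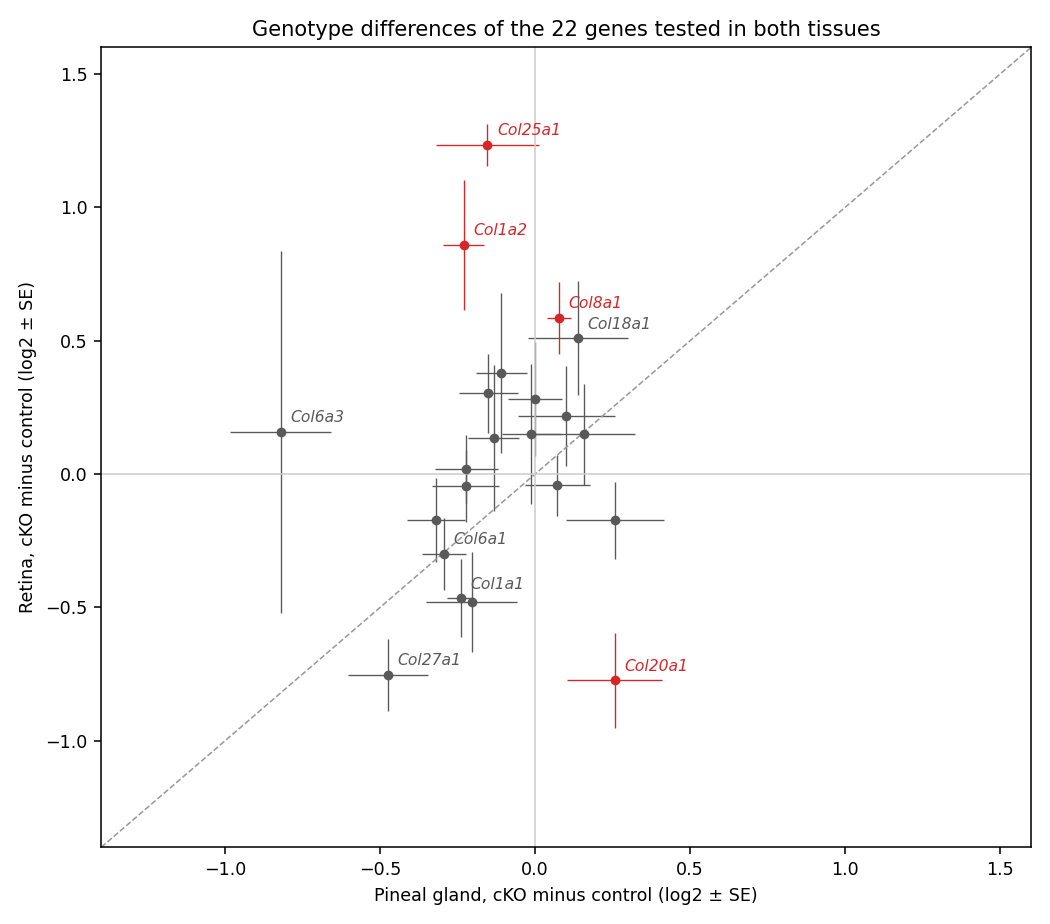
Differences between cKO and control over both times in the pineal gland (x axis) and in the retina (y axis), log2 with SE bars, for the 22 collagen chain genes tested in both tissues, with 6 pools per genotype in each tissue. Red marks the 4 of them whose difference between tissues passed, with Col25a1 at -0.15 and 1.23, and the dashed line marks equal differences.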

How the data were processed

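RNA of the pools was extracted with RNeasy Micro columns, amplified with NuGEN Ovation V2, labelled with biotin and hybridised to Affymetrix Mouse 430 2.0 arrays, per the labels' protocols. The authors deposited 1 linear signal intensity per probe set and array, and the submitters' processing notes name GCOS, with no version or scaling given in the sources used here. Of 45101 probe sets, 34945 had 1 symbol in the platform annotation, 932 several, 9160 none and 64 were controls. Names come from that annotation, and RefSeq (GRCm38.p6) changed no symbol of the 42 genes.

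Signals were quantile-normalised over the 24 arrays, 16 was added and log2 taken. Genes above the array median on at least 3 arrays of a fit were tested with limma 3.58.1 in R 4.3.3 (1 mean per group, variance trend, Benjamini-Hochberg over 11984, 11748 or 12928 genes), within each tissue or, between tissues, over all arrays, in 14 comparisons. Replicates are pools, and p-values measure only the spread between pools. An exact test of 3 pools against 3 cannot go below p = 0.1, so none was used. On simulated data with 200 changed genes, 98% of 2-fold and 99% of 4-fold changes were recovered in the pineal ZT6 comparison (11984 genes) and 86% and 98% in the retinal one (11748 genes), with 13 false calls each.

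Pools share a number across groups. The labels do not say that the numbers pair the samples. Deviations of same-numbered control and cKO pools at pineal ZT6 correlated at 0.27, 0.33 and 0.43, and there the replicate block is given beside the result. The block was fitted over all groups of the tissue, night pools included. Every collagen gene could be named, with pool values for those that passed and for Col1a1, Col1a2, Col2a1, Col3a1, Col4a1, Col4a2, Col6a1, Col9a1 and Col18a1; of other lists, up to 4 members that passed with the largest change. Aldh3a1, Mip and Mlana in single pools were chosen after their values were seen. Members and lists were chosen with earlier results of these data known. The alternatives were other scalings, pseudocounts of 1 and 64, other filters, no variance trend, the block, and pools left out. A further one took another probe set where the main one had the suffix _x_at or _s_at.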

Additional observations from a re-analysis of the deposited data

Results flagged for a closer look

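For 6 collagen chain genes the difference between cKO and control, averaged over both times, differed between retina and pineal gland by limma's interaction contrast over all 24 arrays, adjusted over 12928 genes. The retinal difference exceeded the pineal one for Col25a1 by 1.39 ± 0.20 (adjusted p = 4.0e-05), for Col1a2 by 1.09 ± 0.27 (adjusted p = 0.0063), for Col5a3 by 0.80 ± 0.24 (adjusted p = 0.022) and for Col8a1 by 0.51 ± 0.15 (adjusted p = 0.020), in log2 units. It was lower than the pineal one for Col20a1 (-1.03 ± 0.24, adjusted p = 0.0046) and Col22a1 (-0.997 ± 0.28, adjusted p = 0.015). Col5a3 lay above the array median on 0 of 12 retinal arrays and Col22a1 on 0 of 12 pineal arrays, so these 2 entered the fit through 1 tissue, and their values rest on a dim signal in the other. Of the 6, the Col25a1 and Col1a2 calls held in all 37 alternatives. Col1a2 was below the array median in most retinal control pools, and the retinal rises of Col25a1 and Col8a1 each rest on 1 probe set.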

How the results depend on the processing

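Of 2117 refits of the 70 calls of single collagen genes, 1945 kept direction and call, 172 kept direction and lost the call, and none reversed. Another probe set was used in these refits only where the main one had the suffix _x_at or _s_at. The second Col19a1 set, which went against the main one in the retina at ZT6, was therefore not among them. On the values as deposited the number of collagen genes called was 3 for pineal genotype at ZT6 (1 higher, 2 lower), 10 at ZT20, 8 over both times, 2 for pineal day-night in controls, 3 in cKO, 1 for its interaction with genotype, 0 for retinal day-night in controls, and 11 for the difference between tissues; all-gene medians there shifted to -0.15 (pineal ZT20), 0.29 (retina ZT6), 0.20 (retina, both times) and -0.27 (retina against pineal gland). Centring on medians gave 7 at pineal ZT6 (5 higher, 2 lower) with an all-gene median of 0.25, and 1 for retinal day-night in controls. With no filter on dim genes, 3 passed for pineal genotype over both times, 2 for pineal day-night in cKO and 0 for retinal day-night in controls; without the variance trend these were 0 for the first and 1 for the last. The replicate block was fitted over all groups of a tissue. It gave 2 at pineal ZT6, 3 for pineal day-night in cKO and 0 for retinal day-night in controls. No other count of collagen genes changed with it by over 1.5 times. By the labels, pools share only a number. The other probe set gave 1 for retina at ZT20. Without pools 2 and 3 labelled cKO at ZT20 there were 0 for pineal genotype over both times, 2 for pineal day-night in cKO, 6 for retinal genotype over both times, and 1 and 0 for retinal day-night in controls and cKO. Without the ZT6 pineal pools 3 there were 0 for pineal genotype over both times. Without the 4 retinal pools of high Aldh3a1 signal, chosen after seeing the data, there was 1 for retinal day-night in controls. Leaving out 1 pool gave 0 to 1 (pineal ZT6), 0 to 2 (ZT20), 1 to 7 (both times), 4 to 5 and 0 to 3 (day-night, control and cKO), 0 to 0 (interaction); 5 to 11, 2 to 5, 7 to 13, 0 to 2, 1 to 2 and 0 to 0 for the same in the retina; 28 to 32 between control tissues, and 6 to 8 for the difference between tissues. Over alternatives other than single pools, all genes passing ranged from 1 to 4169 at pineal ZT6 (219 in the main analysis) and from 2 to 5178 over both times (195). Quantile normalisation within each tissue, both pseudocounts and the stricter filter left every count of collagen genes within 1.5 times. Signal over background limited the 7 collagen genes that were in no fit.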
